A study of Schizosaccharomyces pombe with 20 samples.

Results

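The Δpwi1 strain of the fission yeast Schizosaccharomyces pombe was compared directly with the Δaar2 strain, intron by intron, to ask how far the loss of 2 different splicing factors affects the same introns. Δpwi1 lacks SPCC825.05c and Δaar2 lacks SPAC3H5.04, each replaced by KanR in a deletion strain from Bioneer. Per the labels, both were set against the wild-type strain ED666 from the same supplier. There were 2 arrays of Δpwi1 and 2 arrays of Δaar2, from separately grown cultures of 25 ml in YES medium harvested at an A600 of about 0.5, out of 20 arrays of 12 deletion strains. Each array carried cDNA of the deletion strain in Cy3 and of wild type in Cy5, and each deposited value is a log2 ratio with the deletion strain on top and wild type below.

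A probe in an exon reads total mRNA, a probe in an intron reads pre-mRNA, and a probe across an exon–exon junction reads mature mRNA. A splicing event was an intron together with the junction that its removal makes. Subtracting the junction value of an array from the intron value of that array gave its ratio of pre-mRNA to mature mRNA, so that 0 on this log2 scale is the wild-type ratio. Values on all 4 arrays were needed for the comparison, which left 4691 of 5098 exon probes, 1758 of 4885 intron probes, 4152 of 4694 junction probes and 1520 of 4673 events. Introns are named by gene and number as on the array, and gene symbols come from RefSeq.

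Introns are removed by the spliceosome, which is built on each pre-mRNA from small nuclear ribonucleoproteins (snRNPs) and many associated proteins. Pwi1 is related to human SRRM1, a coactivator of the SR-like family whose PWI domain binds nucleic acid, and it has no counterpart in budding yeast. In human cells SRRM1 helps SR proteins bound to exons to contact the snRNPs. Aar2 is known from budding yeast as an assembly factor of the U5 snRNP, where it holds the core protein Prp8 before the helicase Brr2 joins. The U5 snRNP is part of every active spliceosome.

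The deleted genes were checked first. The pwi1 exon probe read -2.81 and -4.04 on the Δpwi1 arrays, against -0.56 and -0.32 on the Δaar2 arrays. The aar2 exon probe read -0.04 and -0.18 on the Δpwi1 arrays, against -4.34 and -6.45 on the Δaar2 arrays. Each deleted gene was thus low on both arrays that carry its name. On the other pair, aar2 was near the wild-type level and pwi1 was somewhat below it. Replicate 1 of Δpwi1 stood apart in other genes. The probe for ura4, an auxotrophic marker gene, read -0.45 there and between -7.07 and -4.36 on the 18 other arrays with a value. The probe for the mating-type gene mat3-Mc read -0.40 there and -4.32 on replicate 2, and it ranged from -7.43 to -2.84 on 17 of the other arrays, with 0.07 on replicate 1 of the strain labelled smd3. Whether this bears on the ratios was not tested, and results are also given without that array. On replicate 1 of Δpwi1 49 exon probes shared 1 identical value, as did 26 on replicate 1 of Δaar2.

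In both strains the ratio of most introns lay somewhat above wild type, and the middle of the range gave no stable order of the strains. The median ratio of the 1520 events was 0.27 and 0.59 on the Δpwi1 arrays, against 0.59 and 0.33 on the Δaar2 arrays. The groups overlapped, and the spread between arrays of a strain was as wide as that between strains. The ratio lay above wild type for 71.2% and 87.4% of events in Δpwi1, against 82.7% and 76.6% in Δaar2. The median difference of Δpwi1 minus Δaar2 was -0.27 within replicate 1, 0.25 within replicate 2 and -0.0014 over the strain means. Against wild type, by limma, 229 events rose in Δpwi1 (15.1% of those tested) and 159 rose in Δaar2 (10.5%), while 3 fell in Δpwi1 and 2 fell in Δaar2. These counts changed with the fit, to 483 in each strain without 6 arrays of doubtful label, to 450 in Δpwi1 and 435 in Δaar2 with the 4 arrays alone, and to 174 in Δpwi1 and 23 in Δaar2 with trend and robust estimation. Leaving out replicate 1 or replicate 2 of Δaar2 took its count of events past the test to 0, and leaving out an array of Δpwi1 took its count to 35 without replicate 1 and to 40 without replicate 2.

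The strains differed more at the upper end of the range. A value of 2 is a ratio of pre-mRNA to mature mRNA 4-fold that of wild type. Single arrays stood above 2 for 39 and 35 events in Δpwi1, against 32 and 7 in Δaar2. Replicate 1 of Δaar2 was thus close to Δpwi1 at this height. Both arrays stood above 2 for 26 events in Δpwi1 and for 1 event in Δaar2. Both stood above 3 for 12 events in Δpwi1 and for 1 in Δaar2. The single Δaar2 event was intron 1 of tom20, which encodes a receptor of mitochondrial protein import. At the lower height of 1, the counts were 176 events in Δpwi1 and 110 in Δaar2. The 99th percentile of the ratio was 3.01 and 2.74 on the Δpwi1 arrays, against 2.18 and 1.57 on the Δaar2 arrays. No test was made of these counts.

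**Figure D1:**
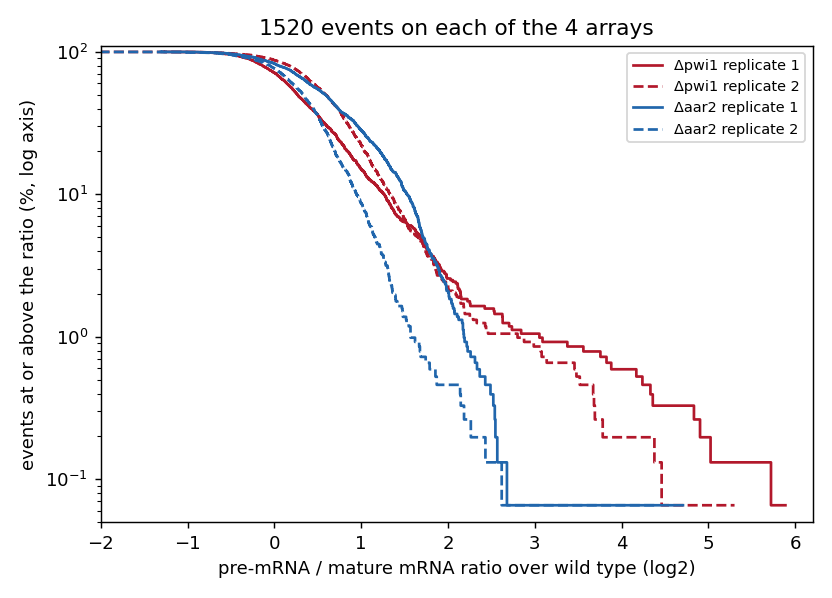
Share of the 1520 events (vertical axis, percent, log scale) at or above each ratio of pre-mRNA to mature mRNA over wild type (horizontal axis, log2), with 1 line per array. The lines of Δpwi1 and Δaar2 cross below 2, whereas above 3 there are 16 and 13 events on the Δpwi1 arrays and 1 event on each Δaar2 array.

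In the direct comparison 21 events had a higher ratio in Δpwi1 than in Δaar2 (1.38% of the 1520 tested) and 0 had a lower ratio, by limma in 1 fit over all 20 arrays at a Benjamini–Hochberg adjusted p under 0.05. At an unadjusted p under 0.05 there were 55 higher and 9 lower events. The 21 events lay in 21 different genes. In each of them both Δpwi1 arrays lay above both Δaar2 arrays, as they did for 18.8% of all events. The strain means of these introns were 1.78 to 5.51 in Δpwi1, with a median of 3.52, against -0.38 to 0.82 in Δaar2, with a median of 0.05. In the ratio, Δaar2 alone did not pass the test against wild type at any of them, the lowest adjusted p by limma being 0.068. The difference from Δaar2 chose these events, so their low Δaar2 ratios are a description and not a test. In pre-mRNA the intron of SPAC56E4.08c did pass in Δaar2 (1.05 and 0.83, limma adjusted p = 0.029). Without replicate 1 of Δpwi1, 12 events were called, all 12 among the 21, and the same number was found without replicate 1 or replicate 2 of Δaar2.

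**Figure D2:**
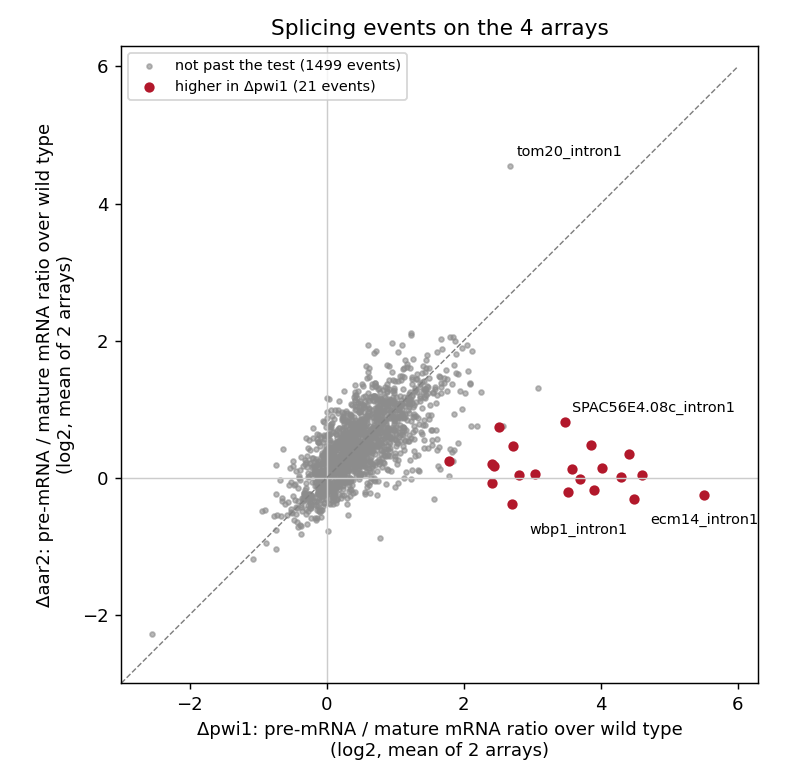
Mean ratio of pre-mRNA to mature mRNA over wild type (log2, mean of 2 arrays) in Δpwi1 on the horizontal axis and in Δaar2 on the vertical axis, for 1520 events. The 21 events past the test (red) run along the horizontal axis from 1.78 to 5.51 in Δpwi1 and reach at most 0.82 in Δaar2, and the dashed line marks equal ratios.

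The largest difference was at intron 1 of ecm14, whose product is related to metallocarboxypeptidases. Its ratio was 5.72 and 5.30 in Δpwi1, against -0.78 and 0.26 in Δaar2. The difference of 5.77 ± 0.39 (SE), or 54.7-fold, had an adjusted p of 2.63e-07 by limma. On the 16 arrays of the other strains this intron ranged from -1.19 to 0.85, so that both Δpwi1 arrays lay far above every other array of the series. Intron 1 of wbp1, a subunit of the oligosaccharyltransferase that attaches N-linked glycans to proteins, had 5.89 and 3.08 in Δpwi1, against -0.52 and -0.12 in Δaar2. Its difference of 4.80 ± 0.81 (SE, limma adjusted p = 0.0055) was the least even between the Δpwi1 arrays, and without replicate 1 of Δpwi1 it was 3.40 with an adjusted p of 0.125. Intron 2 of SPBC21B10.09 had 4.83 and 4.38 in Δpwi1, against 0.0023 and 0.07 in Δaar2, a difference of 4.57 ± 0.40 (SE, limma adjusted p = 8.77e-05).

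Intron 3 of mms19, a factor that delivers iron–sulphur clusters to DNA repair and replication enzymes, had a ratio of 4.90 and 3.69 in Δpwi1, against -0.43 and 0.45 in Δaar2 (difference 4.29 ± 0.44 SE). Intron 1 of rad17, the clamp loader subunit of the DNA damage checkpoint, had 4.36 and 3.68 in Δpwi1, against -0.10 and 0.39 in Δaar2 (difference 3.87 ± 0.44 SE). The last intron of chk1, the effector kinase of the same checkpoint, was less strongly raised, with 2.70 and 2.18 in Δpwi1, against 0.29 and 0.04 in Δaar2. In all 3 genes the wild-type ratio was nearly kept in Δaar2. Intron 1 of tfa1, the large subunit of the general transcription factor TFIIE, had 4.17 and 2.99 in Δpwi1, against 0.17 and 0.09 in Δaar2 (difference 3.45 ± 0.44 SE). Intron 1 of mcl1, which links replicative helicase and DNA polymerase alpha, had 2.63 and 2.18 in Δpwi1, against 0.40 and 0.01 in Δaar2. The calls for chk1 and mcl1 did not hold without replicate 1 of Δpwi1 (adjusted p = 0.375 and 0.172 by limma), whereas those of mms19, rad17 and tfa1 did.

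Intron 3 of irc3, known in budding yeast as a helicase of mitochondrial DNA, had a ratio of 4.33 and 3.46 in Δpwi1, against -0.31 and -0.06 in Δaar2 (difference 4.08 ± 0.38 SE, limma adjusted p = 3.67e-05). Intron 3 of icp55, a peptidase that trims proteins imported into mitochondria, had 3.38 and 3.67 in Δpwi1, against -0.62 and 0.21 in Δaar2 (difference 3.73 ± 0.37 SE, limma adjusted p = 3.67e-05). Intron 2 of gup1, a membrane-bound acyltransferase, had 5.03 and 3.78 in Δpwi1, against 0.19 and 0.52 in Δaar2 (difference 4.05 ± 0.49 SE). All 3 were called under every alternative setting that could test them. Both Δaar2 values of irc3 were below the wild-type ratio.

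Intron 2 of atg3, the E2-like enzyme that conjugates the autophagy protein Atg8 to lipid, had a ratio of 3.88 and 3.52 in Δpwi1, against -0.01 and -0.04 in Δaar2 (difference 3.72 ± 0.36 SE, limma adjusted p = 6.69e-05). Intron 3 of ucp12, an RNA helicase by annotation, had 4.24 and 3.48 in Δpwi1, against 0.56 and 0.40 in Δaar2. Intron 2 of pca1, the metacaspase, had 3.56 and 1.83 in Δpwi1, against -0.33 and -0.44 in Δaar2. The Δpwi1 arrays of pca1 differed by more than those of atg3 or ucp12, and its call was lost without replicate 1 of Δpwi1. Intron 1 of sme1, the SmE protein of the ring that all Sm-class snRNPs share, had 3.76 and 2.33 in Δpwi1, against -0.25 and 0.36 in Δaar2 (difference 2.99 ± 0.59 SE, limma adjusted p = 0.028). Without replicate 1 of Δpwi1 the sme1 difference was 2.28 (limma adjusted p = 0.532). Intron 2 of wdr7, a WD repeat protein, had 2.74 and 2.88 in Δpwi1, against 0.06 and 0.02 in Δaar2. The only intron of SPAC56E4.08c, with 3.83 and 3.14 in Δpwi1, against 0.89 and 0.74 in Δaar2, had the highest Δaar2 mean of the 21, 0.82.

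The 4 events not yet described had differences of 1.53 to 2.50. Intron 1 of ubp9, a deubiquitinating enzyme, had 2.54 and 2.29 in Δpwi1, against -0.32 and 0.16 in Δaar2, and intron 1 of gta1 had 2.63 and 2.80 in Δpwi1, against 0.77 and 0.16 in Δaar2. The last intron of ysh1, the endonuclease that cleaves mRNA 3′ ends, had 2.84 and 2.19 in Δpwi1, against 0.85 and 0.63 in Δaar2. The last intron of rgf2, an exchange factor of the Rho1 GTPase, had 1.68 and 1.87 in Δpwi1, against 0.12 and 0.37 in Δaar2, and its difference of 1.53 ± 0.33 (SE) was the smallest past the test. These 4, like wbp1, pca1, sme1, chk1 and mcl1, were not called when replicate 1 of Δpwi1 was left out, nor when either Δaar2 array was. For chk1, gta1 and rgf2 the same held without replicate 2 of Δpwi1. The call of gta1 was also lost with trend and robust estimation, and that of rgf2 with each array centred on its median feature. The differences within replicate 1 ran from 1.57 to 6.50 over the 21 events and those within replicate 2 from 1.50 to 5.04. Replicate 1 of Δpwi1 was above replicate 2 in 17 of the 21 events, as against 28.7% of all events.

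**Figure D3:**
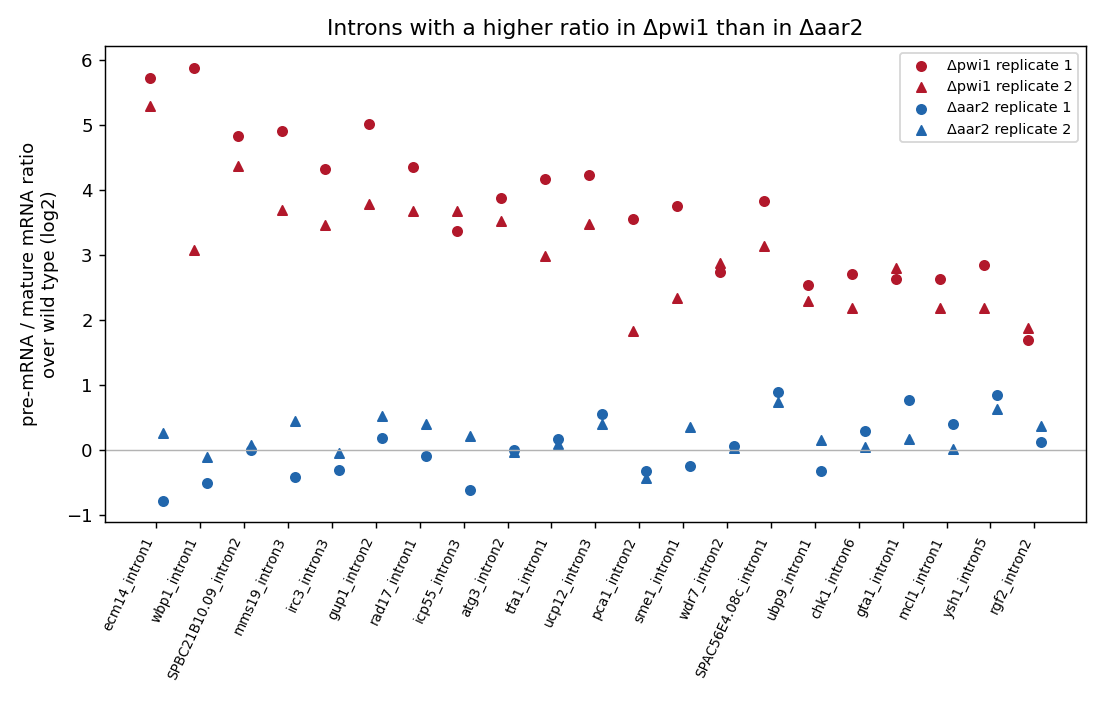
Ratio of pre-mRNA to mature mRNA over wild type (log2, vertical axis) on each Δpwi1 array (red) and each Δaar2 array (blue) for the 21 events past the test, ordered by difference. All Δpwi1 points lie at 1.68 or above and all Δaar2 points at 0.89 or below.

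The same introns were mostly close to wild type in the other strains. The median over the other 16 arrays, of which 5 to 16 had a value, was between -0.15 and 0.97 for the 21 introns. In all 21 both Δpwi1 arrays exceeded every other array with a value. The highest value on a non-Δpwi1 array was 2.80, at wbp1 intron 1. Since the Δpwi1 values chose these events, their place above the other strains is a description and not a test.

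At the intron probe 18 of the 21 events were called higher in Δpwi1. In all, 21 of 1758 intron probes were called higher (1.19%) and 0 lower. The intron value is part of the ratio that chose the events, so it is no separate support for them. At an unadjusted p under 0.05 there were 58 higher and 15 lower intron probes. The 3 events whose intron probe did not pass were sme1 intron 1 (difference 2.16), chk1 intron 6 (1.36) and gta1 intron 1 (1.05). The median difference of the 21 events was 2.51 in pre-mRNA and -0.83 in mature mRNA, but for icp55 intron 3 (1.61 and -2.12) and gta1 intron 1 (1.05 and -1.20) the mature mRNA differed by more. For ecm14 intron 1 the pre-mRNA value was 4.23 and 4.46 in Δpwi1, against -0.34 and 0.39 in Δaar2, a difference of 4.32 ± 0.32 (SE, limma adjusted p = 3.26e-07). For atg3 intron 2 it was 3.74 and 3.80 in Δpwi1, against 0.21 and 0.19 in Δaar2, a difference of 3.56 ± 0.29 (SE, limma adjusted p = 7.3e-06). Without replicate 1 of Δpwi1 8 intron probes were called, and in a fit of the 4 arrays alone 40 were higher and 7 lower.

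Another 3 introns passed in pre-mRNA alone. Intron 2 of irc20 read 3.41 and 3.25 in Δpwi1, against -0.16 and -0.30 in Δaar2 (difference 3.56 ± 0.33 SE, limma adjusted p = 9.66e-05). Its event had a value on replicate 1 of each strain only, with a ratio of 4.10 in Δpwi1 and -0.27 in Δaar2. The single intron of SPAC26F1.08c read 2.98 and 3.003 in Δpwi1, against 0.91 and 0.54 in Δaar2, and intron 1 of mpc1, a subunit of the mitochondrial pyruvate carrier, read 3.26 and 2.83 in Δpwi1, against 1.86 and 1.26 in Δaar2. The mpc1 intron was above wild type on all 4 arrays and higher in Δpwi1 (difference 1.48 ± 0.34 SE).

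At the junction probe 2 of the 21 events passed the test, both lower in Δpwi1. All 21 junction differences were below 0, which describes the events but does not support them, since a low junction value raises the ratio that chose them. The junction of icp55 intron 3 read -2.11 and -2.07 in Δpwi1, against -0.00055 and 0.07 in Δaar2 (difference -2.12 ± 0.17 SE, limma adjusted p = 0.00017). The junction of ecm14 intron 1 read -1.49 and -0.84 in Δpwi1, against 0.45 and 0.12 in Δaar2 (difference -1.45 ± 0.22 SE, limma adjusted p = 0.031). Over all 4152 junction probes 4 were lower in Δpwi1 (0.0963%) and 0 were higher, with 41 each way at an unadjusted p under 0.05. The other 2 belonged to pwi1 itself. Its junction 3 read -2.21 and -3.05 in Δpwi1, against -0.39 and -0.10 in Δaar2, and its junction 1 read -1.86 and -2.87 in Δpwi1, against -0.46 and -0.30 in Δaar2.

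Few exon probes differed between the strains. Of 4691 exon probes 2 were higher in Δpwi1 (0.0426%) and 1 was lower (0.0213%), with 43 higher and 20 lower at an unadjusted p under 0.05. Of the 3, 2 were the deleted genes, pwi1 at -2.99 ± 0.33 and aar2 at 5.28 ± 0.51 (difference ± SE). The third was atg3, at 2.07 and 1.97 in Δpwi1, against 0.53 and 0.10 in Δaar2, a difference of 1.71 ± 0.20 (SE, limma adjusted p = 0.0029). Its exon probe and its intron 2 probe were therefore both high in Δpwi1. The junction of intron 2 read -0.15 and 0.28 in Δpwi1 and 0.22 and 0.23 in Δaar2. The junction of intron 1 read 1.26 and 1.56 in Δpwi1, against 0.28 and 0.08 in Δaar2. Its difference of 1.23 ± 0.30 (SE) did not pass (limma adjusted p = 0.482). The other 20 genes with a called event had exon differences between -0.32 and 0.57, none past the test.

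**Figure D4:**
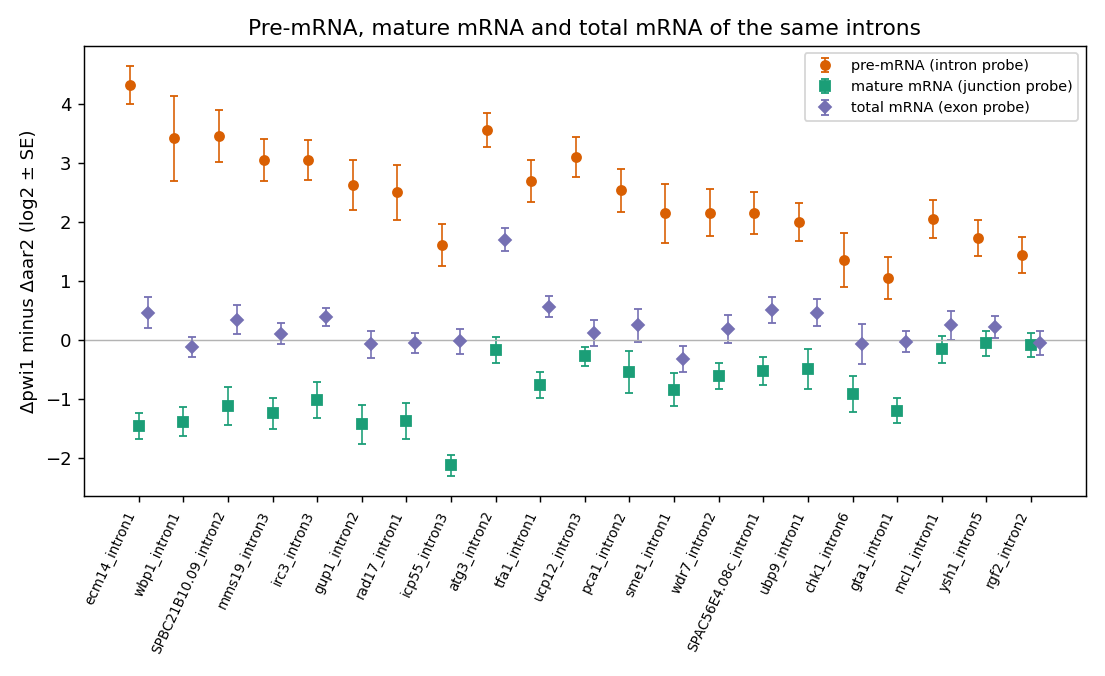
Difference of Δpwi1 minus Δaar2 (log2, bars are the SE from limma) in pre-mRNA, mature mRNA and total mRNA for the 21 events past the test of the ratio, in the same order. Pre-mRNA lies above 0 and mature mRNA below 0 for each event, and total mRNA stays between -0.32 and 0.57 except for atg3 at 1.71.

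The difference between the strains was selective within genes. The 21 genes carried 71 introns on the array, and 20 of the genes had several. In 12 of them at least 2 events were measured on all 4 arrays. Their 17 other events had differences of -1.06 to 0.35, with a median of -0.43, and 0 passed. When the ratio of each intron was taken against the mean of the other measured introns of its gene, 12 of 707 introns were higher in Δpwi1 (1.7%) and 11 were lower (1.56%), in 12 of 299 genes. These were the same 12 genes, and the lower introns were their neighbours, since in a gene with 2 measured introns each is the mirror of the other. The within-gene ratio uses the values that gave the 21 events and is no separate support for them.

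In ecm14, intron 1 exceeded intron 3 by 6.15 and 4.67 in Δpwi1, against -0.33 and 0.31 in Δaar2. Intron 3 itself had a ratio of -0.42 and 0.63 in Δpwi1, against -0.45 and -0.04 in Δaar2. In SPBC21B10.09 intron 2 exceeded intron 1 by 5.61 and 4.59 in Δpwi1, against -0.16 and -0.26 in Δaar2. In each of these genes that neighbour was the only other intron measured on all 4 arrays. In mms19 the ratio of intron 1 was 0.42 and 0.07 in Δpwi1, against 0.94 and 0.72 in Δaar2, and intron 3 exceeded it by 4.49 and 3.62 in Δpwi1 and by -1.37 and -0.27 in Δaar2. In tfa1 intron 2 was lower than wild type in Δpwi1, at -1.10 and -0.19, against 0.67 and 0.15 in Δaar2, and intron 1 exceeded it by 5.27 and 3.18 in Δpwi1. The last intron of wbp1 had -0.62 and 0.22 in Δpwi1, against 0.23 and 0.34 in Δaar2. Here again the neighbours of the raised intron stayed within about 1 of the wild-type ratio.

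The gene irc3 has 5 introns on the array. Introns 1, 2, 3 and 4 had mean ratios of -0.13, -0.90, 3.90 and -0.25 in Δpwi1, against 0.52, -0.47, -0.18 and -0.36 in Δaar2. Intron 2 was the only one of the 17 neighbouring events that passed a test against wild type in Δpwi1, and it was lower, at -1.27 and -0.53 (limma adjusted p = 0.034), with -0.69 and -0.25 in Δaar2. The gene icp55 has 11 introns. Intron 3 exceeded the mean of the 2 other introns measured on all 4 arrays, 7 and 9, by 3.12 and 2.56 in Δpwi1, against -1.11 and -0.43 in Δaar2. Intron 6 of icp55, picked out after its values were seen, had 3.19 on replicate 1 of Δpwi1 and 0.71 on replicate 1 of Δaar2 and no value on the replicate 2 arrays.

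**Figure D5:**
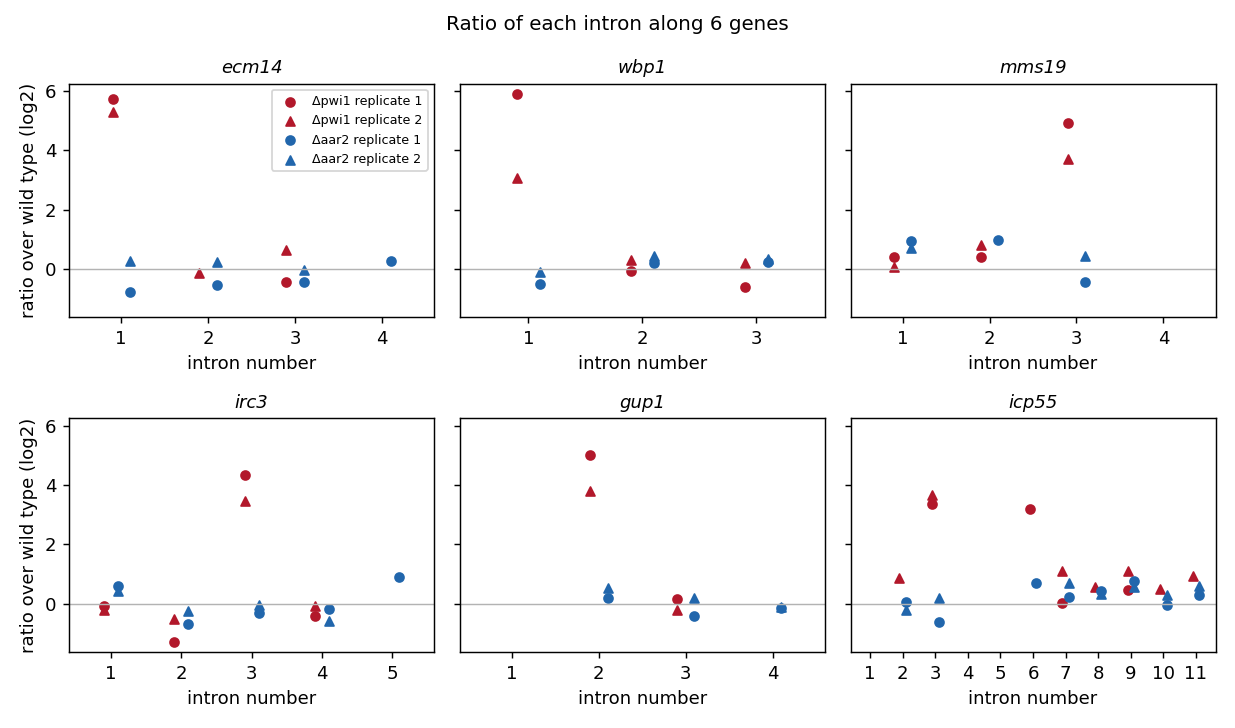
Ratio of pre-mRNA to mature mRNA over wild type (log2, vertical axis) by intron number (horizontal axis) in ecm14, wbp1, mms19, irc3, gup1 and icp55, on each Δpwi1 array (red) and each Δaar2 array (blue), with missing values left blank. Intron 1, 1, 3, 3, 2 and 3 of these genes stand at 3.08 or above on both Δpwi1 arrays, and only icp55 has another point near that height, 3.19 at intron 6.

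By position, 8 of 352 first introns were called (2.27%), 7 of 401 internal introns (1.75%), 5 of 409 last introns (1.22%) and 1 of 358 introns that are the only one of their gene (0.279%), beside 1.38% of all events. The median difference was 0.05, 0.01, -0.04 and -0.02 in these classes. By gene structure, 11 of 725 events in genes with 2 to 3 introns were called, 7 of 286 in genes with 4 to 5 and 2 of 151 in genes with 6 or more. Against wild type 58 first introns rose in Δpwi1 and 33 in Δaar2, 63 internal introns in Δpwi1 and 46 in Δaar2, 71 last introns in Δpwi1 and 47 in Δaar2, and 37 only introns in Δpwi1 and 33 in Δaar2, beside 15.1% of all events in Δpwi1 and 10.5% in Δaar2. These are counts without a test.

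Gene lists chosen with earlier results of these data known are set beside the 1.38% of all events that were called higher in Δpwi1. Among splicing factors 1 of 3 events of the Sm ring (sme1) was higher in Δpwi1, and 0 of 8 events of U5 and tri-snRNP proteins, 0 of 7 of U1, SR and SR-like proteins, 0 of 2 of U2 and branch site factors and 0 of 5 of the Prp19 complex and catalytic factors. The list of DNA replication and damage checkpoint genes held 2 of 24 (rad17 and chk1, 8.33%), and that of vesicle traffic and autophagy 1 of 30 (atg3). Those lists had median differences of -0.0018 and -0.17, beside -0.0014 for all events. None was called among 34 events of ubiquitin and proteasome genes (median difference -0.22), 29 of ribosomal protein genes (-0.11), 24 of cytoskeleton and cytokinesis genes (0.05), 9 of RNA elimination and nuclear exosome genes (0.12) or 8 of meiotic genes (0.13). For total mRNA the 28 measured genes of the core stress response had a median difference of 0.30, beside -0.0084 for all exon probes. Of these genes 0 were called, beside 0.0426% of all exon probes called higher. Their median was 0.29 and 0.13 on the Δpwi1 arrays, against -0.26 and 0.06 on the Δaar2 arrays, so that the replicate 2 medians were close.

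No intron passed in the other direction, although 1 lower event, intron 2 of the RNA helicase gene dbp2, was called when replicate 2 of Δpwi1 was left out. Its ratio was -0.49 and 1.71 in Δpwi1, against 1.61 and 2.26 in Δaar2, so the groups overlapped. The smallest adjusted p of a lower event was 0.399 by limma, for intron 1 of rpb10, a subunit shared by the nuclear RNA polymerases, with -0.35 and 0.36 in Δpwi1, against 1.62 and 0.70 in Δaar2. Intron 1 of mmi1, which encodes the RNA-binding protein that marks meiotic transcripts for elimination, had 0.56 and 0.88 in Δpwi1, against 2.02 and 1.68 in Δaar2 (difference -1.12 ± 0.47 SE, limma adjusted p = 0.89). Intron 2 of pup2, a subunit of the 20S proteasome, had 0.15 and 1.23 in Δpwi1, against 2.23 and 1.40 in Δaar2. For rpb10, mmi1 and pup2 the groups did not overlap, as held in this direction for 12.4% of all events. Intron 4 of vma5, of the vacuolar ATPase, had -0.24 and 0.30 in Δpwi1, against 1.66 and 0.63 in Δaar2, and intron 2 of tfa1, given above, was of like size. The most negative mean difference, -1.88 ± 1.23 (SE), was at tom20 intron 1, with 0.88 and 4.46 in Δpwi1, against 4.71 and 4.39 in Δaar2. It came from replicate 1 of Δpwi1 alone, and the median of the other 16 arrays was 4.50.

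The introns with the highest ratios in Δaar2 were mostly above wild type in Δpwi1 as well. Per the labels, both strains were read against the same wild-type strain, so these values stand side by side with no measure of likeness. Replicate 1 of Δpwi1 stood apart at ura4 and mat3-Mc, and whether its wild-type sample differed was not tested. The introns here were picked by their Δaar2 values. Intron 1 of tos4, a gene of the G1 to S transition, had 1.32 and 1.13 in Δpwi1, against 2.43 and 1.79 in Δaar2. Intron 1 of SPCC132.03 had 1.85 and 1.90 in Δpwi1, against 2.11 and 1.87 in Δaar2. The single intron of rib4, of riboflavin synthesis, had 1.75 and 1.83 in Δpwi1, against 2.37 and 1.74 in Δaar2. No difference passed for these 3, whose groups overlapped for SPCC132.03 and rib4. The single intron of mcp7, a meiotic recombination factor, had 2.11 and 1.98 in Δpwi1, against 2.55 and 1.33 in Δaar2. On the other arrays these 4 introns had medians of 0.93, 1.31, 1.21 and 0.36, with highest values of 2.40, 3.41, 2.85 and 3.60. Other introns also had a higher Δaar2 mean than mcp7. Intron 1 of rpc34 had 1.19 and 1.26 in Δpwi1, against 2.54 and 1.62 in Δaar2. Intron 2 of SPBC16E9.02c had 0.21 and 1.71 in Δpwi1, against 1.74 and 2.19 in Δaar2. Neither difference passed. For intron 2 of ptl3 and intron 1 of mbx1, also above mcp7, the groups overlapped.

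Intron 1 of SPAC22F8.13 read below the wild-type ratio on every array of both strains. It had -0.85 and -0.62 in Δpwi1, against -1.31 and -0.78 in Δaar2 (difference 0.30 ± 0.35 SE, limma adjusted p = 0.998). Against wild type it passed in Δaar2 (limma adjusted p = 0.021) but not in Δpwi1 (limma adjusted p = 0.055). Of the introns used in the study's genetic screen, fet5 intron 1 had a ratio of 0.76 and 1.07 in Δpwi1, against 1.14 and 0.96 in Δaar2. The groups overlapped, and the difference of -0.14 ± 0.60 (SE) did not pass. Intron 2 of pwi1 lies in a gene that Δpwi1 lacks and had no ratio there, and in Δaar2 it had 0.46 on replicate 2 only.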

How the data were processed

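Per the labels, total RNA of each deletion strain (Cy3) and of wild type (Cy5) was hybridised to an Agilent splicing array. The authors deposited log2 ratios for every probe on every array, in 2 tables whose 304160 cells were equal. How the log2 values were background-corrected and normalized, and when a value was left empty, is not stated here, so their centring is unknown. Empty values stayed missing, 536 control spots were left out, and no scaling was applied. Of 5152 gene identifiers 4775 matched RefSeq, 3995 with a symbol.

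The contrast of Δpwi1 minus Δaar2 was fitted with limma 3.58.1 (R 4.3.3), with 1 mean per strain over 20 arrays and Benjamini–Hochberg adjustment over the features of 1 type with values on the 4 arrays. An adjusted p under 0.05 was called. The p-values of 2 arrays per strain rest on the spread pooled over all strains. On simulated data with these events, the fit recovered 22.4%, 76.1% and 98.5% of changes of 1, 2 and 4 and called 0.985% of 1320 events without a change. The simulation changed 67, 67 and 66 events by these sizes, far more than the 21 called here. Its rates therefore need not hold for this comparison. The number of arrays limits the precision.

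The members, gene lists and named genes were chosen with earlier results of these data known. The rule named the 15 largest positive and the 5 largest negative differences of the ratio without overlap, the 8 largest within genes, the 5 or 8 largest each way for the other measures, the deleted genes, the introns of the genetic screen, ura4, the mating-type genes and list members. Other called events, the neighbouring introns and the introns highest in Δaar2 were named after their values were seen. Alternatives changed the arrays fitted, the estimation, the centring, the missing-value rule and the replicate block.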

Additional observations from a re-analysis of the deposited data

How the results depend on the processing

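The 21 events kept their direction under every alternative that tested them (2 of them could be tested with features on all 20 arrays), and 12 (ecm14, SPBC21B10.09, mms19, irc3, gup1, rad17, icp55, atg3, tfa1, ucp12, wdr7 and SPAC56E4.08c) kept their call under each of these. Leaving out each array in turn gave 12 to 20 called events for the ratio, 1 of them lower (without replicate 2 of Δpwi1), 8 to 16 introns, 1 to 5 junctions, 1 to 3 exons and 12 to 24 introns within genes. Against wild type it gave 35 to 177 events in Δpwi1 and 0 to 91 in Δaar2. A lone array was assumed to vary like the other strains.

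Without 6 arrays whose labels were in doubt, 33 events, 34 introns, 2 junctions and 5 exons were called between the strains, and 492 events in Δpwi1 and 494 in Δaar2 against wild type. With the 4 arrays alone 47 introns were called, 40 higher and 7 lower, and 458 events in Δpwi1 and 442 in Δaar2 against wild type. With features on all 20 arrays 276 events, 413 introns and 24 introns within genes could be tested, and 2, 2 and 0 were called, with 76 in Δpwi1 and 77 in Δaar2 against wild type. Centring each array on its median feature gave 135 events in Δpwi1 and 59 in Δaar2 against wild type, 108 and 44 of them higher. Trend and robust estimation gave 24 in Δaar2. The cause was not tested.

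Same-numbered arrays deviated together (r = 0.387 for the ratio over events), but the labels do not say that a number marks a shared day. With the replicate number as a block, 23 events, 19 introns, 4 junctions, 3 exons and 16 introns within genes were called, and 302 events in Δpwi1 and 254 in Δaar2 against wild type. Centring on exon probes cancels in the ratio, and the rule of 1 array per strain was not run within genes.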

Other observations

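Probes across junctions that skip 1 or more exons belong to neither measure of the ratio. Of these, 226 had values on all 4 arrays, and 0 differed between Δpwi1 and Δaar2 by limma, with 0 also at an unadjusted p under 0.05.

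Intron probes were missing unevenly. Of 4885 intron probes, 2309 and 2512 had a value on the Δpwi1 arrays, against 4229 and 3389 on the Δaar2 arrays. For 6 introns both Δpwi1 arrays and neither Δaar2 array had a value, and for 620 introns neither Δpwi1 array and both Δaar2 arrays did. These introns could not enter the comparison, and the sources used here do not say how missing values were set.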
